A study of Mus musculus with 4 samples.

Results

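The narrow DNMT3B regions on chromosome 16 comprised 334 of the 1705 distinct regions in the MACS list of a ChIP-seq study of lung metastases, with 1371 on the other chromosomes. A region was a member when its deposited chromosome was 16, and regions with the same chromosome, start and end were counted once. DNMT3B ChIP libraries (2, antibody against DNMT3B) and input libraries (2, no antibody) were made from lung metastases of 4T1, a mouse mammary tumour cell line, in BALB/c mice. Both kinds carried the lung labels 3 and 5, and nothing in the labels says that these are separate mice or whether host lung cells were removed. The study asked where in the genome DNMT3B was enriched in these metastases. The deposited lists hold positions and gene names, with no read count, score or p-value and no value for any single library. Depth is therefore unknown, no spread between replicates exists, and the tests below describe how regions are distributed over genes and chromosomes.

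DNMT3B is a de novo DNA methyltransferase, which adds methyl groups to cytosines of CpG dinucleotides that carried none before. In mammalian genomes it is known for methylating transcribed gene bodies and repeats, while CpG-rich promoters usually stay free of methylation. Narrow peak callers such as MACS report short stretches of enrichment, and broad callers such as SICER report long islands. The wording deposited with each narrow region says how it lies relative to genes: contained within a gene, inside an intron, overlapping a gene in part, upstream or downstream.

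Promoters of 4 genes with several narrow regions are shown as examples of the sequence at gene starts on chromosome 16. Of the genes named below, Pigz, 1810013L24Rik, Eva1c and App have 3 regions each and at least 1 that overlaps the gene in part or lies up to 1 kb upstream. Genes with most such regions came first. Cdip1 and Ubald1 tie with App at 1 such region, and the first by name was taken. The sequences are the 250 bases before the RefSeq start, from GRCm38.p6, 5′ to 3′ on the strand of the gene, with CpG dinucleotides in capitals.
Pigz: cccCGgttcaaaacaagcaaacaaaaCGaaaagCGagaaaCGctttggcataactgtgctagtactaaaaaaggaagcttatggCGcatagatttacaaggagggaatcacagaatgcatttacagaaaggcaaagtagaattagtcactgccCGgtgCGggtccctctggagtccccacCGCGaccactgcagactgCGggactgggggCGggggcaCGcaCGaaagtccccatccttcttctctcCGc
1810013L24Rik: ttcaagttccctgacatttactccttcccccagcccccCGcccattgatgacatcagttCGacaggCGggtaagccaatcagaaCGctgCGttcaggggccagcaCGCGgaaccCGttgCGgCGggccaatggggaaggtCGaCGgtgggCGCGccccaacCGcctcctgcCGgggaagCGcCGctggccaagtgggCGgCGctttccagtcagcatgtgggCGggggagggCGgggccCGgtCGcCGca
Eva1c: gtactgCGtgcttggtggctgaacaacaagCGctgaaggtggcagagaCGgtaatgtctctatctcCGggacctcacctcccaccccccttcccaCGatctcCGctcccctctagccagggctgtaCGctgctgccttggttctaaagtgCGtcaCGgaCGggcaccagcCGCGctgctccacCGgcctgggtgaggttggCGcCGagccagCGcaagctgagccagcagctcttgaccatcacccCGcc
App: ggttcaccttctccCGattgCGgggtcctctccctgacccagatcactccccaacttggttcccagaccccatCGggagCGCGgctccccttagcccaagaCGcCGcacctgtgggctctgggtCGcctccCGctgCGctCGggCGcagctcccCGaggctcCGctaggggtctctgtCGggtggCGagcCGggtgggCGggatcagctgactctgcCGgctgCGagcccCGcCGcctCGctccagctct
The Pigz stretch is chr16:31933601-31933850 on the plus strand and holds 14 CpG dinucleotides. That of 1810013L24Rik is chr16:8829850-8830099 on the plus strand and holds 25. The Eva1c stretch is chr16:90830609-90830858 on the plus strand and holds 17, and that of App is chr16:85173708-85173957 on the minus strand and holds 23. A GC box, searched as GGGCGG on both strands, occurs 4 times in the 1810013L24Rik stretch, once in those of Pigz and App and not in these letters of Eva1c.

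Positions of the regions are given as deposited, and they do not stand exactly on GRCm38. The labels name mm10, the same assembly as GRCm38, as the build. Gene starts implied by the lists were compared with RefSeq starts for 216 genes of chromosome 16, and 199 (92.1%) lay within 1 kb, but only 14 within 10 bp. The difference, list minus RefSeq, was the same for runs of genes: 93 bp for 49 genes, 86 bp for 34, 245 bp for 30, 73 bp for 17 and 0 bp for 12. From 94509463 onward, 12 genes differed by over 100 kb. Region positions also carry at most 6 significant digits, so those of 8 digits fall on steps of 100 bp and those of 7 digits on steps of 10 bp. The last gene with a small difference was Cldn14, at 94009082. Up to there, 235 of 649 protein-coding genes (36.2%) had a region, and beyond it 3 of 30 (10%).

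A large share of the genes of chromosome 16 carried a narrow region. Counting regions that overlap the gene or lie up to 5 kb upstream, 238 of 679 protein-coding genes of chromosome 16 (35.1%, exact 95% interval 31.5 to 38.8) had at least 1, against 1056 of 21208 on the other chromosomes (4.98%, 4.69 to 5.28). Over all chromosomes together the share was 5.91%. The odds ratio was 10.3 (95% interval 8.65 to 12.2, p = 1.05e-122, Fisher's exact test, two-sided). The next highest shares were 13.9% on chromosome 19, 10.6% on chromosome 11 and 9.88% on chromosome 8. Intervals and p-values cover counting error only and treat genes as independent, which neighbouring genes sharing a region are not. Chromosome 16 was chosen with earlier results of these data known and has the highest share of all chromosomes. P-values for chromosome 16 against the others are therefore a description and no independent support for a difference. Of the 238 genes, 170 had 1 region, 57 had 2 and 11 had 3 or more. A further 12 genes of other kinds, mostly long non-coding RNAs, had a region, among them Gm10789 with 3.

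Chromosome 16 also stood apart in how closely gene positions of the lists matched GRCm38. On chromosome 16, 131 of 146 protein-coding starts given by the broad list (89.7%) lay within 1 kb of a GRCm38 start. The share was 37.5% on chromosome 19 and 13.8% on chromosome 8, and 3.67% or less on the others compared. On chromosome 11 it was 0%. Among genes named in the broad list with both ends within 100 bp of GRCm38, 33 of 61 on chromosome 16 had a narrow region (54.1%, 40.8 to 66.9), against 37 of 67 on the other chromosomes (55.2%, 42.6 to 67.4). The odds ratio was 0.956 (0.449 to 2.03, p = 1, Fisher's exact test, two-sided), an interval that leaves room for a difference in either direction. Among genes at different positions, 52 of 108 on chromosome 16 had a region (48.1%, 38.4 to 58.0), against 399 of 3535 elsewhere (11.3%, 10.3 to 12.4), an odds ratio of 7.30 (4.83 to 11, p = 1.55e-20, same exact test). Most of these chromosome 16 genes still lay within 1 kb of GRCm38 at both ends, and few of those elsewhere did. The ratio therefore does not compare genes displaced to a like degree. With both ends within 1 kb as the limit, 21 of 46 chromosome 16 genes at different positions had a region (45.7%, 30.9 to 61.0), against 387 of 3500 elsewhere (11.1%, 10 to 12.1), and the odds ratio was 6.76 (3.56 to 12.7, p = 5.22e-09, same exact test). With genes split by a start within 1 kb, 3 of 15 at different positions had a region (20%, 4.33 to 48.1), against 294 of 2762 elsewhere (10.6%, 9.52 to 11.9), and the odds ratio was 2.10 (0.378 to 7.84, p = 0.211, same exact test). The part that gene positions play in the high share on chromosome 16 was not tested beyond these splits.

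**Figure D1:**
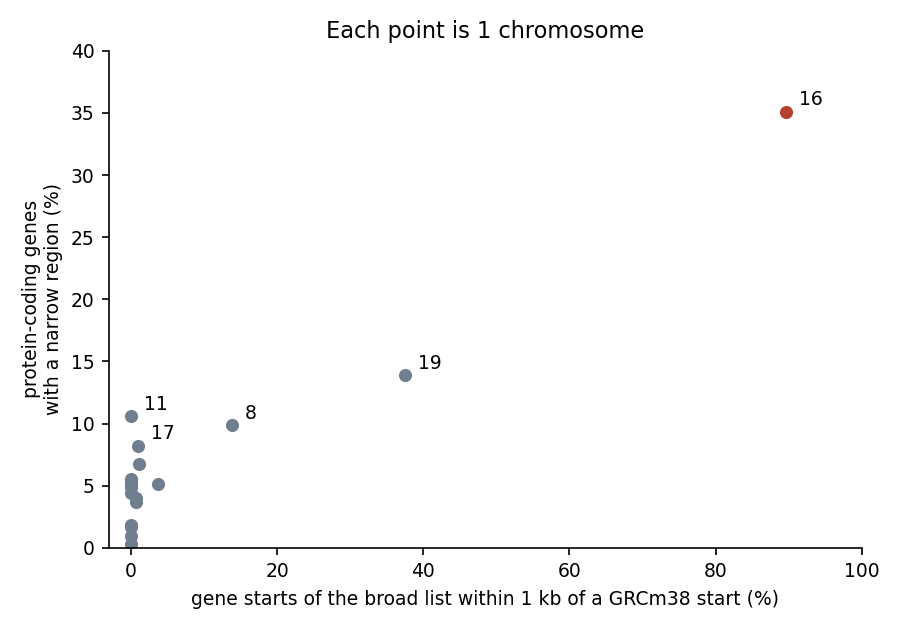
Each point is 1 chromosome, with the share of its protein-coding genes that have a narrow region (vertical, %) against the share of broad-list gene starts within 1 kb of a GRCm38 start (horizontal, %). Chromosome 16 stands at 35.1% and 89.7%, chromosome 19 at 13.9% and 37.5%, and chromosome 11 at 10.6% and 0%; chromosomes without a start to compare are not drawn.

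By the deposited wording, most chromosome 16 regions lay inside genes. Of the 334 regions, 139 (41.6%) were contained within a gene, 79 (23.7%) lay in an intron, 54 (16.2%) overlapped a gene in part, 55 (16.5%) lay upstream and 7 (2.10%) downstream. On the other chromosomes the shares were 37.9% contained, 24.9% intronic, 11.6% in part, 21.6% upstream and 3.87% downstream. None of the 5 differences passed after adjustment over the 5 classes. Partial overlaps came closest, with an odds ratio of 1.47 (1.03 to 2.07, p = 0.0267, adjusted p = 0.104, Fisher's exact test, two-sided), as did upstream regions, with 0.716 (0.512 to 0.989, p = 0.0414, adjusted p = 0.104, same exact test). For contained regions the ratio was 1.17 (0.907 to 1.5, adjusted p = 0.292, same exact test) and for intronic ones 0.932 (0.695 to 1.24, adjusted p = 0.671). Downstream regions had a ratio of 0.532 (0.202 to 1.19, adjusted p = 0.227, same exact test).

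**Figure D2:**
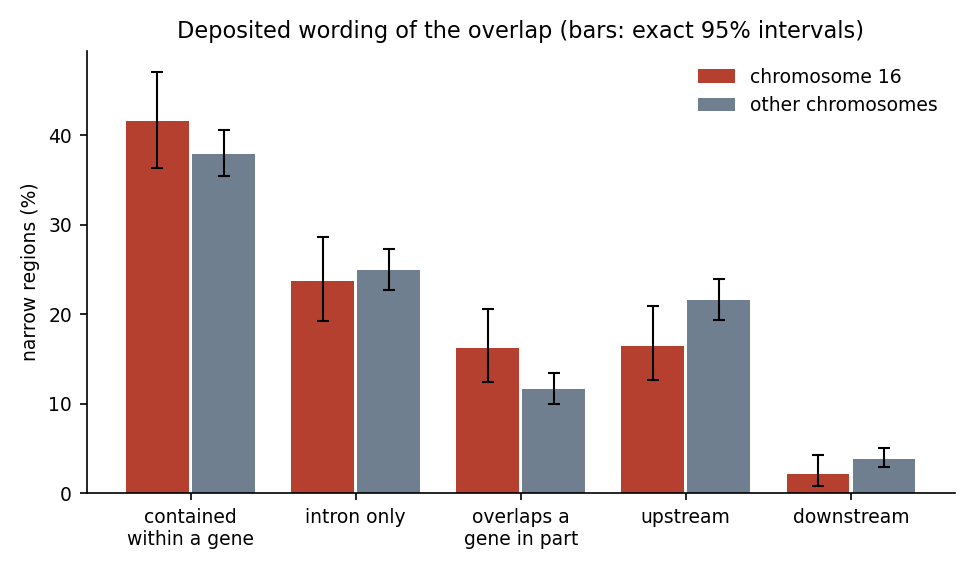
Bars give the share of narrow regions (%) with each deposited wording on chromosome 16 and on the other chromosomes, with exact 95% intervals for counting error. The intervals of both groups overlap in every class, and the contained class is the highest in both, at 41.6% and 37.9%.

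At distance 0 from a gene lay 272 regions (81.4%). The 55 upstream regions had a median distance of 267 bp, from 5 bp at Nrip1 to 50890 bp at Eef2kmt, and 18 were within 100 bp, 37 within 500 bp and 44 within 1 kb. The 7 downstream regions lay farther out, with a median of 7119 bp. Of the 334 regions, 9 were more than 10 kb from a gene, and on the other chromosomes 4.60% of regions were. Among the 9 was that from 42190300 to 42190400, which lay 43973 bp downstream of Lsamp, an adhesion gene of neurons. Regions just upstream of a gene or across its edge were counted together. Contained and intronic regions close to a start are not in this count, so it is not the full share near gene starts. Those up to 1 kb upstream of a gene or overlapping one in part made up 98 of 334 regions on chromosome 16 (29.3%, 24.5 to 34.5), against 390 of 1371 elsewhere (28.4%, 26.1 to 30.9). The odds ratio was 1.04 (0.794 to 1.37, p = 0.736, Fisher's exact test, two-sided). Of the 16 partial overlaps on chromosome 16 whose gene start the broad list gives, 15 had their midpoint within 1 kb of it.

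Midpoints were also measured from gene starts that the broad list gives, whose positions do not depend on where narrow regions lie. Where a region had several such starts, the nearest was used, which favours short distances. Midpoints gathered just inside the gene. Such a start was known for 136 of the 334 regions (40.7%). Of these, 99 (72.8%) lay within 1 kb, 78 of them into the gene and 21 before it. A further 7 lay 1 to 5 kb into the gene, 19 deeper than 5 kb and 11 more than 1 kb before it. The median midpoint was 298 bp into the gene on chromosome 16 and 324 bp on the other chromosomes, where 67.6% of 602 midpoints lay within 1 kb. These genes are those paired with a broad island, so other genes of chromosome 16 are not covered.

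**Figure D3:**
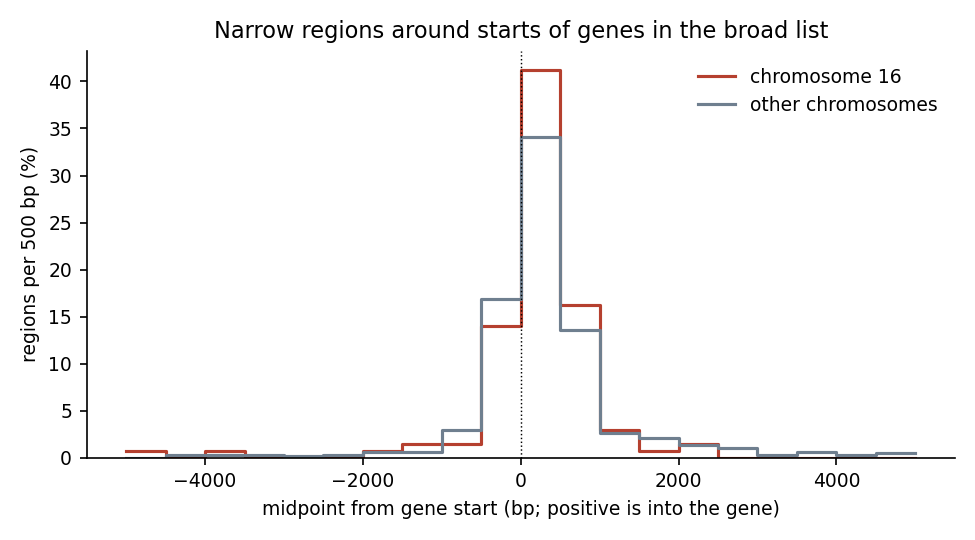
Share of region midpoints (%) per 500 bp by their distance from the nearest gene start of the broad list (bp, positive into the gene), for 136 regions on chromosome 16 and 602 on the other chromosomes. Both lines peak in the first 500 bp of the gene; midpoints beyond 5 kb are counted in the total but not drawn.

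Gene starts with a region had CpG-rich promoters. A gene counted here when a region lay up to 1 kb upstream of it, overlapped it in part or had its midpoint within 1 kb of a start either list gives, and 135 protein-coding genes of chromosome 16 did. RefSeq promoters of 300 bases, 250 before and 50 after the start, were at hand for 568 of the 679 genes (83.7%). They held a median of 23.0 CpG dinucleotides at 118 genes with a region at the start, 22 at 87 genes with a region elsewhere and 5 at 363 genes with none. Genes whose start neither list gives, such as Gsk3b and Hira, count as elsewhere when their regions lie inside them. Some of those regions may lie at the start, so these values do not contrast start with elsewhere. Counts of genes with a region at the start can be too low for the same reason. The share of promoters with an observed over expected CpG ratio of at least 0.6 and at least 50% GC was 77.1%, 75.9% and 30.3% in the same order, and 47.0% over all 568. On the other chromosomes it was 85% at 448 genes with a region at the start and 44.0% at genes with none. The GC box, GGGCGG on either strand, occurred in 65.3% of promoters with a region at the start and 31.7% of those with none, against 44.0% over all. For TATAAA the shares were 1.69% (2 of 118 promoters) and 25.3%, against 18.0% over all. For CACGTG they were 11% and 6.89% (8.45% over all), and for CCAAT 35.6% and 39.1% (38.4% over all). On the other chromosomes the same shares were 75.7% and 45.1% for GGGCGG and 4.69% and 13.5% for TATAAA. For CACGTG they were 12.9% and 7.69% there, and for CCAAT 38.8% and 39.0%. A match describes the letters in the window and is not evidence of a bound factor. The median GC content of the chromosome 16 promoters was 63.0% at genes with a region at the start and 50% at genes with none, and its part in these shares was not tested.

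**Figure D4:**
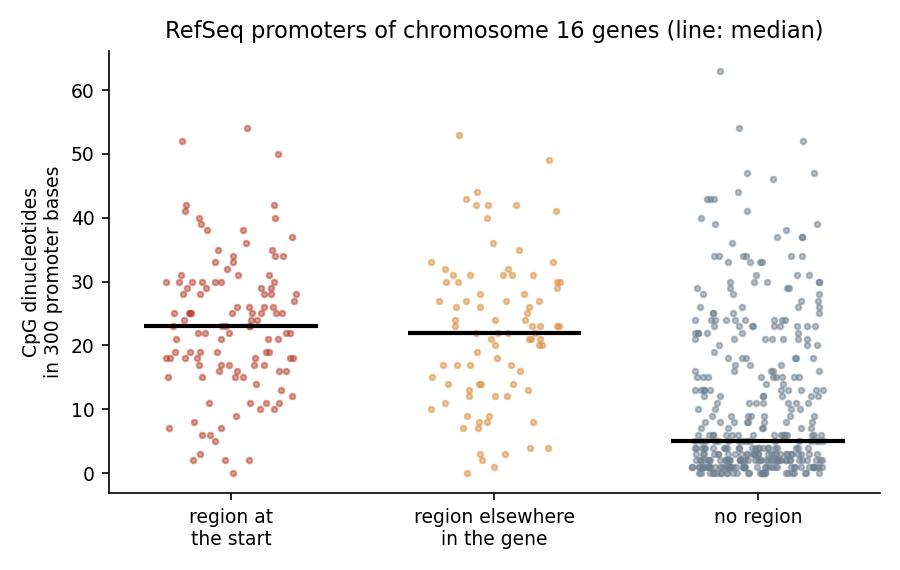
Each point is the RefSeq promoter of 1 protein-coding gene of chromosome 16, with its CpG dinucleotides in 300 bases (vertical), for genes with a region at the start, with a region elsewhere and with none. The group with a region elsewhere includes genes whose start neither list gives. The lines are medians, at 23.0, 22 and 5 CpG dinucleotides; points are spread sideways for visibility.

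Broad islands covered part of the narrow regions. By its name the broad list is a top selection, and each listed island is paired with a gene. A region outside islands, or a stretch without them, may therefore still have broad enrichment that is not listed. On chromosome 16, 92 of 334 regions (27.5%, 22.8 to 32.7) overlapped an island by 1 bp or more, against 429 of 1371 elsewhere (31.3%, 28.8 to 33.8). The odds ratio was 0.835 (0.632 to 1.10, p = 0.186, Fisher's exact test, two-sided). Of the 398 islands on chromosome 16, 60 (15.1%) held a narrow region, against 337 of 7844 elsewhere (4.30%), and no island held more than 3. Chromosome 16 also had more regions for its islands, 83.9 per 100, against 69.4 on chromosome 18, the next highest, and 32.0 on chromosome 19. The shares of islands were not adjusted for this number. Islands with a region were wider, at a median of 7400 bp, than those without one, at 5800 bp. By wording, 44 of 139 contained regions (31.7%) lay in islands, 23 of 79 intronic ones (29.1%), 13 of 55 upstream ones (23.6%) and 10 of 54 partial overlaps (18.5%). Many chromosome 16 regions stood on several deposited lines, which the labels and headers do not explain. The 334 regions took up 1043 lines, with 96 on 1 line, a median of 2 and a maximum of 24 at a region 4928 bp downstream of Srl, a gene of muscle calcium storage. Regions in islands had a median of 3 lines and those outside 2.

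Widths could be read only to the rounding of positions. Among 267 regions of chromosome 16 with starts of 8 digits and an end above the start, the median was 200 bp wide, the quartiles were 100 and 300 bp, and the widest region measured 800 bp. On the other chromosomes 584 such regions had a median of 100 bp and quartiles of 100 and 200 bp, so the medians differ by 1 rounding step. Equal start and end occurred in 27 of the 334 regions.

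Along the chromosome the regions ran from 3744220 to 94792200, a span of 91.0 Mb, and they were unevenly spread. The chromosome was divided into 20 bins of 5 Mb. The 4 fullest bins held 159 regions (47.6%), together with 62.3% of the broad islands and 35.6% of the protein-coding genes, and 1 bin had no region. Neighbouring regions lay a median of 65300 bp apart. Within 1 kb of each other they formed 253 clusters, of which 181 were single regions and 72 held 2 or 3, with 153 regions among them. Gaps of over 1 Mb occurred 23 times.

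**Figure D5:**
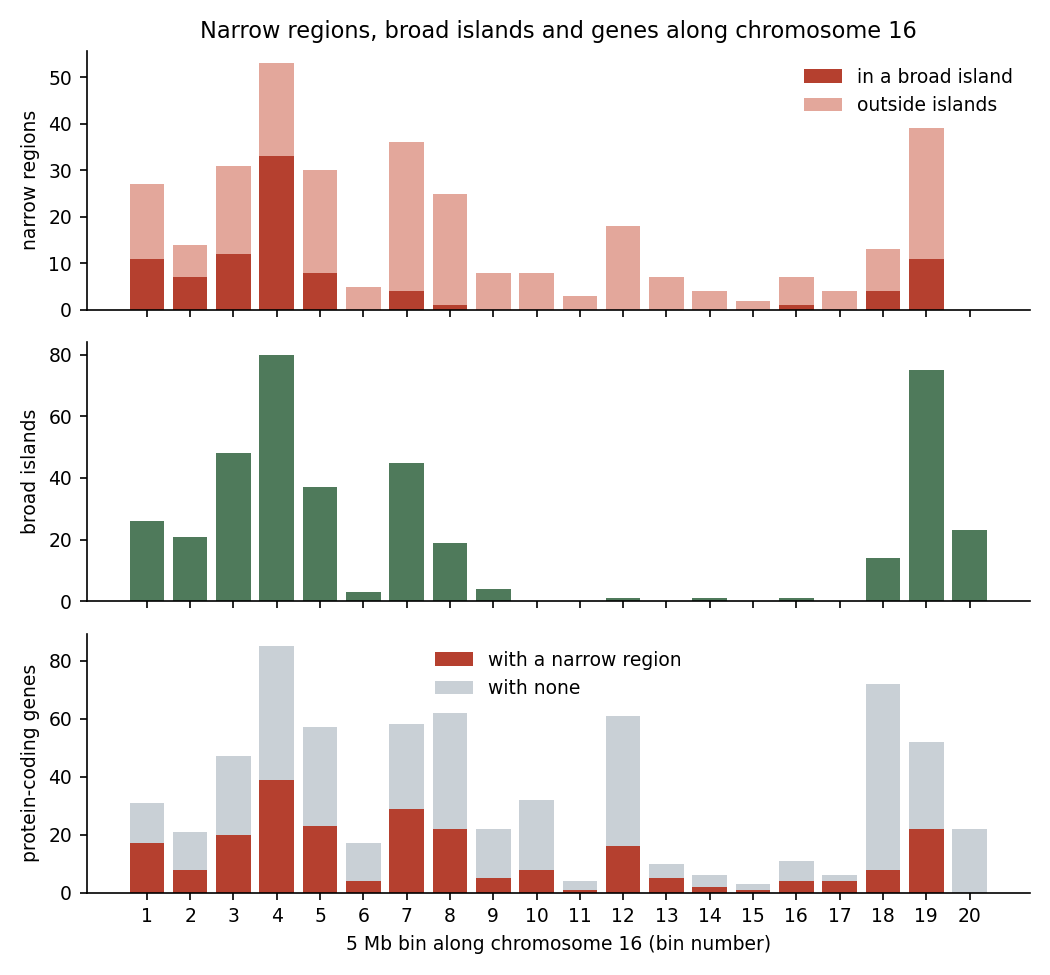
Counts per 5 Mb bin along chromosome 16, of narrow regions in and outside broad islands (top), of islands (middle) and of protein-coding genes with and without a narrow region (bottom). Bin 4 is the fullest with 53 regions and 80 islands, bin 19 holds 39 regions and 75 islands, and bins 10 to 17 hold few listed islands but still have genes with a region.

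The densest 1 Mb, from 17111000 to 18089300, held 30 regions, 23 of them in islands, at 19 genes. It overlaps in part the stretch whose human counterpart is the 22q11 deletion region. Of its genes, Ppil2, Rimbp3, Hic2 and Ydjc, among others, are not on the 22q11 list read below. Scarf2, a scavenger receptor gene, was named by 6 regions there, of which the last, from 17815500 to 17816100, lay 7119 bp downstream. Rimbp3, a gene known for its role in sperm, had 3 regions from 17208700 to 17210600, all contained within it and in the same island. Slc25a1, the mitochondrial citrate carrier, was named by 3 regions: 1 lay 3104 bp downstream, 1 was contained and ran from 17927400 to 17928000 on 15 lines, and 1 overlapped the gene in part. Med15 of the Mediator complex was named by 2 regions, of which 1 was contained and 1 lay 11359 bp upstream. Pi4ka, a phosphatidylinositol kinase, had 2, and so had Ydjc and Tmem191c.

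Sparse stretches contrasted with this one. Between 40 and 85 Mb, limits chosen after the counts per bin were seen, 61 regions lay among 155 protein-coding genes. Only 1 of these regions was in an island (1.64%), and the stretch held 7 listed islands. On the remaining chromosome 91 of 273 regions lay in islands (33.3%), with 391 islands among 524 genes. In the sparse stretch 46 of 155 genes had a region (29.7%), against 192 of 524 on the remaining chromosome (36.6%). No test of these splits was run, since they follow from limits drawn on the data. The longest gap without a region, 6.16 Mb from 78577100 to 84735700, held 3 protein-coding genes and no listed island. They are Chodl, a lectin-like membrane protein gene, Tmprss15, which encodes enteropeptidase, and Ncam2, a neural adhesion gene. The next, 5.98 Mb from 70314700 to 76293600, held the axon guidance receptors Robo1 and Robo2 with Lipi, Rbm11, Hspa13 and Samsn1.

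Among genes with 3 or more regions, some had regions near the start, and several had regions deep in the gene as well. Runx1, a transcription factor of blood formation that is also expressed in mammary epithelium, had 4 regions, none in an island. The pair from 92605800 to 92605900 and from 92606000 to 92606300 was contained within the gene, and the region from 92606000 stood on 21 lines. The pair from 92697600 to 92697900 and from 92698800 to 92699100 lay in an intron, and the midpoint of the region from 92697600 was 177 bp before a start that the broad list gives. App, which encodes the amyloid precursor protein, had 1 contained region from 85080100 to 85080400 outside islands. Its other regions lay at the start and in an island of 2800 bp: 1 in an intron from 85173000 to 85173600, and 1 from 85173900 to 85174100 that overlapped the gene in part.

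Pigz, a mannosyltransferase gene of GPI anchor synthesis, had all 3 of its regions at the start: at 936 bp upstream, 637 bp upstream and overlapping the gene in part from 31933900 to 31934100. None was in an island. 1810013L24Rik, a gene known by its clone name, had 1 region 663 bp upstream, 1 overlapping the gene in part and 1 contained from 8830520 to 8831120 on 15 lines, again outside islands. Cdip1, a gene of p53-dependent cell death, had regions 124 bp upstream, in an intron and contained, all from 4789490 to 4790350 and outside islands. Eva1c, a membrane protein gene, had regions 304 bp and 104 bp upstream and 1 more from 90831200 to 90831600 contained within it, all in an island of 5600 bp. Ubald1 had 3 regions in an island of 15400 bp, of which 1 overlapped the gene in part. Coro7, a coronin of the Golgi, had 2 regions near its start, and a further one, from 4640050 to 4640360 in an island, was contained in both Coro7 and Vasn. The 3 regions of Ece2, an endothelin-converting enzyme gene, lay in an island of 2800 bp, and the wording of 2 of them also named Camk2n2, an inhibitor of CaM kinase. In all, 22 regions named 2 or more genes, 14 of them on both strands, so these cannot be assigned to a single gene.

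Gene lists were read against the 35.1% of all chromosome 16 protein-coding genes with a region. Each list is a selection and need not hold every gene of its kind, so its share depends on the members chosen. Of 36 listed genes whose human counterparts lie in the 22q11 deletion region, 22 had one (61.1%, exact interval 43.5 to 76.9), 15 of them at the start and 16 in an island. They include Tbx1, a T-box transcription factor of pharyngeal and heart development, with a region from 18590700 to 18590800 that overlapped the gene in part, in an island of 4400 bp. Prodh, proline dehydrogenase, had a region from 18088900 to 18089300 on 9 lines that overlapped the gene in part, and Zdhhc8, a palmitoyltransferase, had one 70 bp upstream. Hira, a histone chaperone, had a contained region from 18877500 to 18877900. Among the 14 without one were Dgcr8, a microRNA processing factor, Cdc45, Crkl and Ufd1.

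Of 54 listed genes whose human counterparts lie on chromosome 21, 25 had a region (46.3%, 32.6 to 60.4), 19 at the start and 6 in an island. Keratin-associated protein genes are not on this list and are read below as a list of their own. Adamts1, a matrix protease gene, had 2 regions from 85802500 to 85803400 in an island of 6000 bp. Dyrk1a, a protein kinase, had 1 region 213 bp upstream and another from 94792000 to 94792200 contained within it. Hunk, a kinase gene of mammary tumours, had 1 region 641 bp upstream and another in an island. Usp16, a deubiquitinase of histone H2A, had a partial overlap from 87455200 to 87455500, and Synj1, a phosphatase of synaptic vesicles, had 2 contained regions, of which 1 also named 4930404I05Rik. Olig1 and Olig2, transcription factors of oligodendrocytes, were among those without a region. So were Ets2, Erg, Mx1 and Mx2, but these lie beyond Cldn14, where the list positions that could be compared differ by over 100 kb from RefSeq and 3 of 30 genes had a region, Dyrk1a among them.

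In cytokine, interferon and immune signalling 9 of 21 genes had a region (42.9%, 21.8 to 66.0), 5 at the start and 1 in an island. The interferon receptor genes Ifnar2 and Ifnar1 were overlapped in part by regions from 91373000 to 91373200 and from 91485300 to 91485500, and Ifngr2 had one 39 bp upstream. Cd47, the signal that protects cells from phagocytosis, had one 267 bp upstream. Cd80, a co-stimulatory ligand, had 2 in an intron, and Nfkbiz, a nuclear regulator of NF-kB, had 2 contained. The regions of Parp9 also named Dtx3l, its partner gene on the opposite strand. Cd86, Cd200, Ciita and Bcl6 had none.

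Of transcription factor and chromatin genes 18 of 31 had a region (58.1%, 39.1 to 75.5), 10 at the start and 6 in an island. Cebpd, a C/EBP factor of mammary involution, had 1 region 279 bp upstream and 1 from 15888100 to 15888200 contained within it. Tfap4 had 2 intronic regions in an island of 9200 bp, and Hes1, a Notch target and repressor, had one from 30066400 to 30067000 in an island of 8400 bp. Chaf1b, a subunit of the chromatin assembly factor, had 2 regions near its start. Nrip1, a nuclear receptor co-repressor, had 1 contained region in an island and 1 upstream of it at 5 bp. Crebbp, a histone acetyltransferase, had one 1035 bp upstream, and N6amt1, a methyltransferase, one 29 bp upstream. Snai2 and Trp63, factors of basal epithelium, had none.

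Of kinase and growth signalling genes 11 of 20 had a region (55.0%, 31.5 to 76.9), 4 at the start and 2 in an island. Gsk3b, a kinase of the Wnt pathway, had one from 38089600 to 38089900, and Prkdc, the DNA-dependent protein kinase, had a partial overlap from 15637900 to 15638100. Tnk2 had one 29 bp upstream on 9 lines, in an island of 2200 bp. Of adhesion, junction and guidance genes 9 of 25 had a region (36.0%, 18.0 to 57.5), close to the share of the chromosome. Epha3 and Epha6, both Eph receptors, had upstream regions at 16 and 642 bp, and Cldn5, a claudin of endothelial junctions, had a contained one from 18777700 to 18777800. Ephb3, another Eph receptor, had 2, and Cldn1, Cldn8, Robo1 and Alcam had none. None of the 22 keratin-associated protein genes listed had a region, an exact 95% interval of 0 to 15.4%. The lists overlap one another, were described by counts and were not tested.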

How the data were processed

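Chromatin was immunoprecipitated from 4T1 lung metastases with an antibody against DNMT3B and sequenced beside input. Bowtie2 (given as 2.10) aligned the reads, per the submitters' processing notes, which also name mm10. Narrow regions were called with MACS (given as 1.4) and broad islands with SICER, per the same notes. The name of the narrow list gives MACS2 instead and what reads as a p-value cutoff, and neither point was resolved. Per the file headers, the deposited lists give base positions, distances to genes and gene names, with no counts or scores. No label or header says whether libraries were pooled for calling.

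From these lists, identical lines were reduced to distinct regions, and wording and distances were read as deposited. Gene names were matched to the RefSeq table of GRCm38 by symbol or unique synonym, for 256 of 259 names on chromosome 16 (98.8%) and 1431 of 1443 in all (99.2%). RefSeq positions served to compare gene starts and to locate the promoter sequences, which come from RefSeq on GRCm38.p6. No position was converted.

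Shares were compared with Fisher's exact test (two-sided) and given with exact Clopper-Pearson 95% intervals in scipy 1.17.1, with Benjamini-Hochberg adjustment over the 5 wording classes and a threshold of 0.05. The steps were tested on simulated lists. Named genes were those with at least 3 regions, members of 7 gene lists with a region, and genes of the densest 1 Mb and of the longest gaps; genes named as lacking a region, those at the extremes of distance or line count, and the next gap were picked after values were seen. The regions and gene lists were chosen with earlier results of these data known. Alternatives changed the distance rule, the other chromosomes compared, the rounding class and the merging of regions.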

Additional observations from a re-analysis of the deposited data

How the results depend on the processing

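The odds ratio of 10.3 for chromosome 16 genes with a region ranged from 9.70 to 10.7 with overlapping regions only, regions at any distance or autosomes only. Against chromosomes 19, 11 and 8 alone, added after the data were seen, it was 3.34, 4.54 and 4.93, all past the threshold. Among genes at equal positions the ratio of 0.956 turned to 1.17 with both ends within 1 kb and to 1.29 with the start within 1 kb, a split added later; none of the 3 passed. Among genes at different positions the ratio of 7.30 was 6.76 with both ends within 1 kb and still passed, and became 2.10 with the split by the start, where only 15 chromosome 16 genes were left. The size of the difference from GRCm38 was unlike on chromosome 16 and elsewhere, as given above. No wording class passed under any alternative, and several changed side: contained regions gave 0.940 against other chromosomes with starts of 7 or 8 digits, intronic regions 1.01 with every line counted, 1.31 without regions of equal start and end and 1.19 with starts of 7 or 8 digits, and partial overlaps 0.95 without regions of equal start and end. Regions up to 1 kb upstream or overlapping a gene in part gave 0.911 without regions of equal start and end, added later. The cause of these changes was not tested. The island share kept ratios from 0.784 to 0.846. The share of regions in the fullest 20% of bins was 60.8% with bins of 2 Mb, and the median width was 180 bp among regions with starts of 7 digits. No paired analysis was possible because neither list gives values by library; no library could be left out either, and a stricter peak threshold was not run because regions carry no score.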
